A study of Mus musculus with 12 samples.

Results

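Knockdown of Otx2 was examined in mouse embryonic stem cells (ESC) that carry a Sirt1 knockout, by comparing the 3 RNA-seq libraries titled Sirt1KO Otx2KD with the 3 titled Sirt1KO, out of 12 libraries in the series. All 4 groups are C57 Bl/6J cells with 3 libraries each: wild-type ESC, wild-type epiblast-like cells (EpiLC), Sirt1KO ESC and Sirt1KO ESC with Otx2 knocked down. Both groups compared here therefore lack intact Sirt1 by their labels and differ in Otx2. Per the labels' protocols, all ESC were kept on gelatin in serum-free medium that held LIF, 1 uM of PD0325901, which blocks MEK, and 3 uM of CHIR99021, which blocks GSK3. For EpiLC, cells were plated on fibronectin for 48 h, with Activin A at 20 ng/ml, Fgf2 at 12 ng/ml and KOSR, a replacement for serum, at 1%. Neither the means of the Otx2 knockdown nor its control is given in the labels, and they do not say which part of Sirt1 is deleted, how many clones were used or whether replicates are separate cultures, so p-values measure only the spread between these libraries, which may be technical. The deposited values are FPKM (fragments per kilobase of transcript, scaled to the mapped fragments), a level per length, for 27914 loci. Of these, 23136 carry a gene name, and 11662 were tested, those that reached an FPKM of 1 in 3 or more of the 6 libraries.

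Otx2 encodes a homeodomain transcription factor of the OTX family, which binds DNA with the core TAATCC. It is low in naive ESC, which resemble the epiblast before implantation. It rises as cells pass to the formative and primed states of the epiblast after implantation, where it occupies enhancers of genes of that state, and it later patterns the anterior neural plate. Sirt1 encodes an NAD-dependent protein deacetylase. The series' design text sets the change from naive to primed cells beside the changes after Sirt1 loss and Otx2 knockdown. The comparison asks how the Sirt1KO transcriptome differs once Otx2 is reduced.

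Otx2 (chromosome 14, 49277859 to 49282547, mm9) stood at 34.2, 24.6 and 22.2 FPKM in the Sirt1KO libraries and at 6.33, 6.27 and 5.61 FPKM in the Sirt1KO Otx2KD libraries. The groups did not overlap, and Sirt1KO replicate 1 was the highest of the 6. The difference was -1.96 ± 0.12 on the log2(FPKM + 1) scale (log2 fold change ± SE, n = 3 per group, limma with Benjamini-Hochberg adjustment, adjusted p = 3.31e-08), and it was -1.78 without Sirt1KO replicate 1. The mean level fell 4.44-fold and did not reach 0. Wild-type ESC, at a mean of 7.38 FPKM, lay close to the knockdown libraries, and EpiLC stood at 100.2 FPKM. Otx1, the close relative of Otx2, was between 0.788 and 1.17 FPKM in Sirt1KO and between 0.861 and 0.909 in Sirt1KO Otx2KD, under the filter. Crx, another OTX family gene known from photoreceptors, was also under the filter, with means of 0.0741 and 1.09 FPKM. Sirt1 stood at 15.3, 15.3 and 15.7 FPKM in Sirt1KO and at 16.0, 15.6 and 15.04 in Sirt1KO Otx2KD, and it did not pass the test (log2 0.01 ± 0.04, adjusted p = 0.88). That level, against 25.8 FPKM in wild-type ESC, covers the whole locus, so any transcript from outside the deleted part would be counted. Which transcript gave the remaining level was not tested. Pou5f1, which encodes Oct4, had means of 660.2 and 637 FPKM and did not pass either (log2 -0.05 ± 0.03, adjusted p = 0.167).

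Changes with Otx2 knockdown were widespread and mostly small. Of 11662 loci, 7466 passed an adjusted p under 0.05 (64.0%), with 3736 higher (32.0%) and 3730 lower (32.0%) in Sirt1KO Otx2KD. Of the loci that passed, 65.4% changed by less than 0.5 log2 units, and the median size was 0.39. A change of at least 1 log2 unit was found for 469 higher loci (4.02%) and 232 lower loci (1.99%). No library of one group fell within the range of the other for 7966 loci (68.3%), including all 469 and all 232. These percentages are the background for every count below: for a list of genes, 32.0% passing in each direction is what the table as a whole shows. Counts and medians of lists are descriptions of the members that passed the filter on low values, without a test of the list. A member under 1 FPKM in all libraries of 1 group could pass the filter only through the group where it is higher. The direction of its change, and the lack of overlap, were then fixed by the filter. Genes named below to which this applies include Calb2, Krt17, Wisp1, Eomes, Stra8 and Dab2.

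Between 15818 and 16408 named loci had a value above 0 in each of the 6 libraries, and relative depth ranged from 0.767 (Sirt1KO Otx2KD replicate 2) to 1.31 (Sirt1KO Otx2KD replicate 1), on a scale where wild-type ESC replicate 1 is 1. Pairs of libraries correlated at r = 0.975 to 0.980 within the groups and 0.934 to 0.945 between them, over log2(FPKM + 1) of the tested loci, and no 2 were identical. Markers of fibroblasts and feeder cells differed between the groups: the summed level of the 24 listed loci was 42.0 to 48.6 FPKM in Sirt1KO, 501 to 509 in Sirt1KO Otx2KD, 249 to 287 in wild-type ESC and 170.1 to 175 in EpiLC, with none of the 24 at 0 in all libraries of a group. The Y-linked Eif2s3y, a translation initiation factor subunit, was at 0.0529 to 0.181 FPKM in Sirt1KO and 0.235 to 0.769 in Sirt1KO Otx2KD. It was at 27.9 to 30.6 FPKM in wild-type ESC and at 3.70 to 5.41 in EpiLC. The Y-linked helicase Ddx3y was at 0.0186 to 0.0213 FPKM in Sirt1KO and at 0.207 to 0.305 in Sirt1KO Otx2KD. Its values were 13.8 to 14.6 FPKM in wild-type ESC and 2.46 to 3.06 in EpiLC. Whether these differences play a part in the results below was not tested. In bulk libraries, fewer cells of a type and less RNA per cell cannot be told apart.

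**Figure D1:**
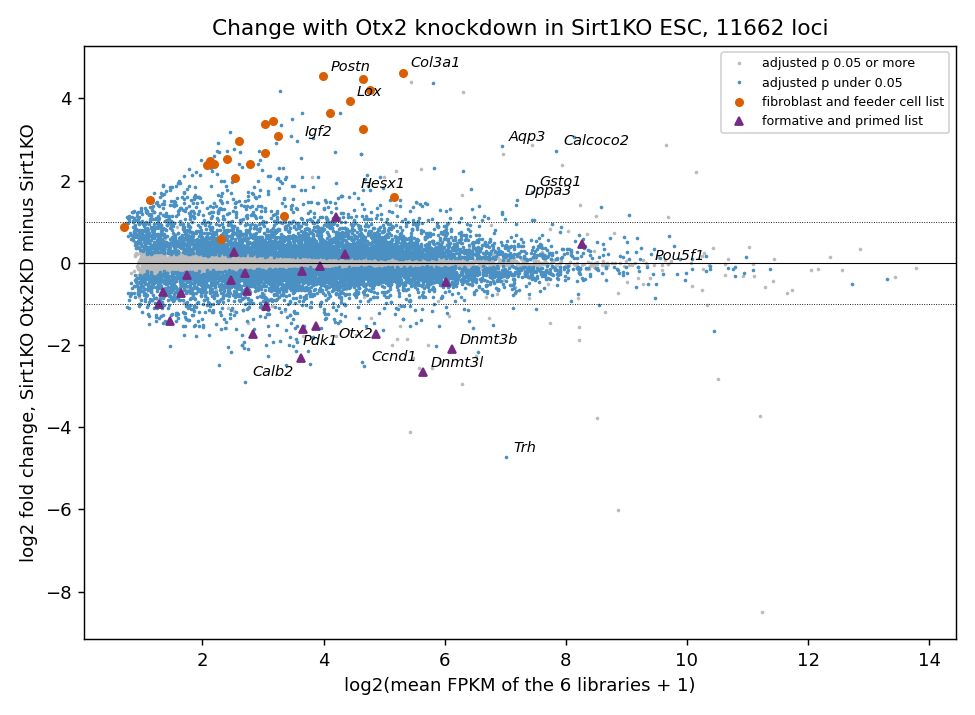
Each point is 1 of the 11662 tested loci, placed by the log2 of its mean FPKM + 1 over the 6 libraries (x) and its log2 fold change, Sirt1KO Otx2KD minus Sirt1KO (y); blue points passed an adjusted p under 0.05, and dotted lines mark changes of 1 log2 unit. Orange points of the fibroblast and feeder cell list lie above 0, Trh lies at -4.73, and most triangles of the formative and primed list lie below 0.

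The gene with the largest fall among those named by rule was Trh, which encodes the precursor of thyrotropin-releasing hormone (chromosome 6, 92192056 to 92194642, mm9). It stood at 235, 251 and 259 FPKM in Sirt1KO and at 7.66, 9.84 and 7.86 in Sirt1KO Otx2KD, 29.4-fold lower (log2 -4.73 ± 0.07, adjusted p = 5.24e-14). All 3 knockdown libraries also lay below the wild-type ESC mean of 37.3 FPKM, while EpiLC stood at 363. Calb2, which encodes the calcium-binding protein calretinin, fell from 9.45, 10.7 and 11.2 to 0.306, 0.525 and 0.821 FPKM (log2 -2.89 ± 0.11). The other genes among the 15 with the largest falls include the membrane protein Emp1 (log2 -2.49 ± 0.09), the basal keratin Krt17 (-2.47 ± 0.17), the intermediate filament gene Prph (-2.28 ± 0.11), autotaxin Enpp2 (-2.18 ± 0.15) and the microtubule regulator Stmn2 (-2.16 ± 0.07). The remaining 8 belong to the formative, DNA methylation, ERK and glycolysis groups described below. Krt17 and Calb2 were at 0.684 and 0.175 FPKM in EpiLC, below their Sirt1KO means of 7.15 and 10.4, so not each of these genes is high in EpiLC. Among the 232 loci that were lower by at least 1 log2 unit, Sirt1KO replicate 1 was the highest Sirt1KO library for 125 and the lowest for 69. Among the 469 that were higher by at least 1 log2 unit, it was the highest for 164 and the lowest for 186. The shares over all tested loci were not counted, so these counts are not read as a relation to Otx2. Without Sirt1KO replicate 1, 213 loci were lower by at least 1 log2 unit.

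The OTX core was searched in promoters, since the members were compared for a reduction of an OTX factor. RefSeq promoters (assembly GRCm38.p6, 250 bases before to 50 after each start) were matched by symbol for 8116 of 11595 tested symbols and scanned for TAATCC on both strands (GGATTA on the other). The core was found in 7.06% of all 32851 promoters and in 5.36% of the 10414 promoters of tested genes. It was found in 5.67% of 194 promoters of genes lower by at least 1 log2 unit and in 4.76% of 420 promoters of genes higher by at least 1 log2 unit. The share in lower genes is thus close to that of tested genes. Of the 15 top lower genes 9 had an entry, and only Emp1 held the core, 115 bases before the second of its annotated starts. Of the 15 top higher genes 8 had an entry, and Ptx3, an acute-phase pattern recognition protein, held it 157 bases before its start. Both sequences are shown with the core in capitals, beside that of Trh, the gene with the largest fall (chosen after its values were seen), in which these letters do not occur. Each gives the 250 bases up to the start, 5′ to 3′ on the gene's strand: Emp1 at chr6:135367243-135367492 (plus), Ptx3 at chr3:66219637-66219886 (plus) and Trh at chr6:92244651-92244900 (minus). Distal sites were not searched, and a match is not evidence of binding.
Emp1: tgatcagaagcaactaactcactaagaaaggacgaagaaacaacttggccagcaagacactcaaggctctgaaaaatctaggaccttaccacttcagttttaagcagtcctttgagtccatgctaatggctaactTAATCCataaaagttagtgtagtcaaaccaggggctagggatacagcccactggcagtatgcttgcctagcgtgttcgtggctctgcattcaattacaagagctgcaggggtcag
Ptx3: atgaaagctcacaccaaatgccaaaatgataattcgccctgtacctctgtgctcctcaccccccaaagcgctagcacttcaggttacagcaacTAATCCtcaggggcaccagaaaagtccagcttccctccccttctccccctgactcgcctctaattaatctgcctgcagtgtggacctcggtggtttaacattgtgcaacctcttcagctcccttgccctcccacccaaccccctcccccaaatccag
Trh: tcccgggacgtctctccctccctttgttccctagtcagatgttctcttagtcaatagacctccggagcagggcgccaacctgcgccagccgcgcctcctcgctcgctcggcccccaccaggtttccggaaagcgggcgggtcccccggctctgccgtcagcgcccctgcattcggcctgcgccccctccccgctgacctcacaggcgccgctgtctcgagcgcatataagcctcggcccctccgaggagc

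Genes of the formative and primed epiblast were mostly lower after Otx2 knockdown. Of 27 listed genes, 23 passed the filter; 17 fell, 4 rose and 2 did not pass the test, and the median log2 fold change was -0.71 against -0.01 over all tested loci. The falls included 10 of at least 1 log2 unit, and Dnmt3a, Dnmt3b, Dnmt3l and Krt18, described with other groups below, are counted among them. Otx2 is not in the list. Pou3f1 (also called Oct6), a POU factor of the early post-implantation epiblast, was at 12.5, 8.66 and 8.66 FPKM in Sirt1KO and at 2.06, 2.39 and 2.38 in Sirt1KO Otx2KD (log2 -1.72 ± 0.11, adjusted p = 1e-08). Fgf5, the ligand that marks this epiblast, was at 4.35, 2.30 and 2.41 FPKM and fell to 0.295, 0.505 and 0.599 (log2 -1.43 ± 0.16). Pou3f1 did not overlap between the groups, and in both genes Sirt1KO replicate 1 was the highest. Fgf5 was under 1 FPKM in each knockdown library and passed the filter only through Sirt1KO. Its fall, counted among the 17, was thus fixed by the filter. Car4, a membrane-bound carbonic anhydrase, fell from 27.3, 18.4 and 13.5 to 2.88, 2.94 and 3.18 FPKM (log2 -2.32 ± 0.18), and the kinase Pim2 fell by 1.74 ± 0.17 on the log2 scale. The SOX factors fell as well: Sox11 from 10.1 to 4.41 FPKM (log2 -1.04 ± 0.06), Sox3 from 2.27 to 0.591 (-1.01 ± 0.18) and Sox4 by 0.70 ± 0.09 on the log2 scale. Smaller falls were those of the epithelial factor Grhl2 (-0.74 ± 0.12), the claudin Cldn6 (-0.46 ± 0.07), the forkhead factor Foxp1 (-0.29 ± 0.07), Sall2 (-0.24 ± 0.07) and the Notch effector Rbpj (-0.21 ± 0.07). The call for Rbpj was lost without Sirt1KO replicate 1 (adjusted p = 0.0811) or Sirt1KO Otx2KD replicate 2 (0.0597).

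The 4 formative and primed genes that rose, against most of their list, count as chosen after their values were seen. Foxd3, a forkhead factor active in both naive and primed cells, rose from 10.6, 10.2 and 10.7 to 23.4, 26.2 and 22.9 FPKM (log2 1.13 ± 0.08). The growth factor binding protein Igfbp2 rose by 0.46 ± 0.05, Zic5 by 0.27 ± 0.09 and Zic2 by 0.22 ± 0.07 log2 units, the latter 2 being zinc finger factors of the ZIC family. Both ZIC calls lay near the threshold and were lost in several of the limma fits that left out 1 library. Zic5 was lost without Sirt1KO replicate 2 or 3 or Sirt1KO Otx2KD replicate 3 (adjusted p = 0.0534 to 0.0653). Zic2 was lost without Sirt1KO replicate 2 or Sirt1KO Otx2KD replicate 2 or 3 (0.0659 to 0.117). Without Sirt1KO replicate 2 or Sirt1KO Otx2KD replicate 3, the list thus held 2 rises. The bHLH factor Tcf15 (log2 -0.41 ± 0.28, adjusted p = 0.225) did not pass, and it passed without Sirt1KO Otx2KD replicate 2 (adjusted p = 0.0487). Lef1, the Wnt effector, shows a separate pattern by group: its means were 11.3 FPKM in wild-type ESC, 23.9 in EpiLC, and it fell with the knockdown from 2.15 to 0.915 FPKM (log2 -0.71 ± 0.11).

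**Figure D2:**
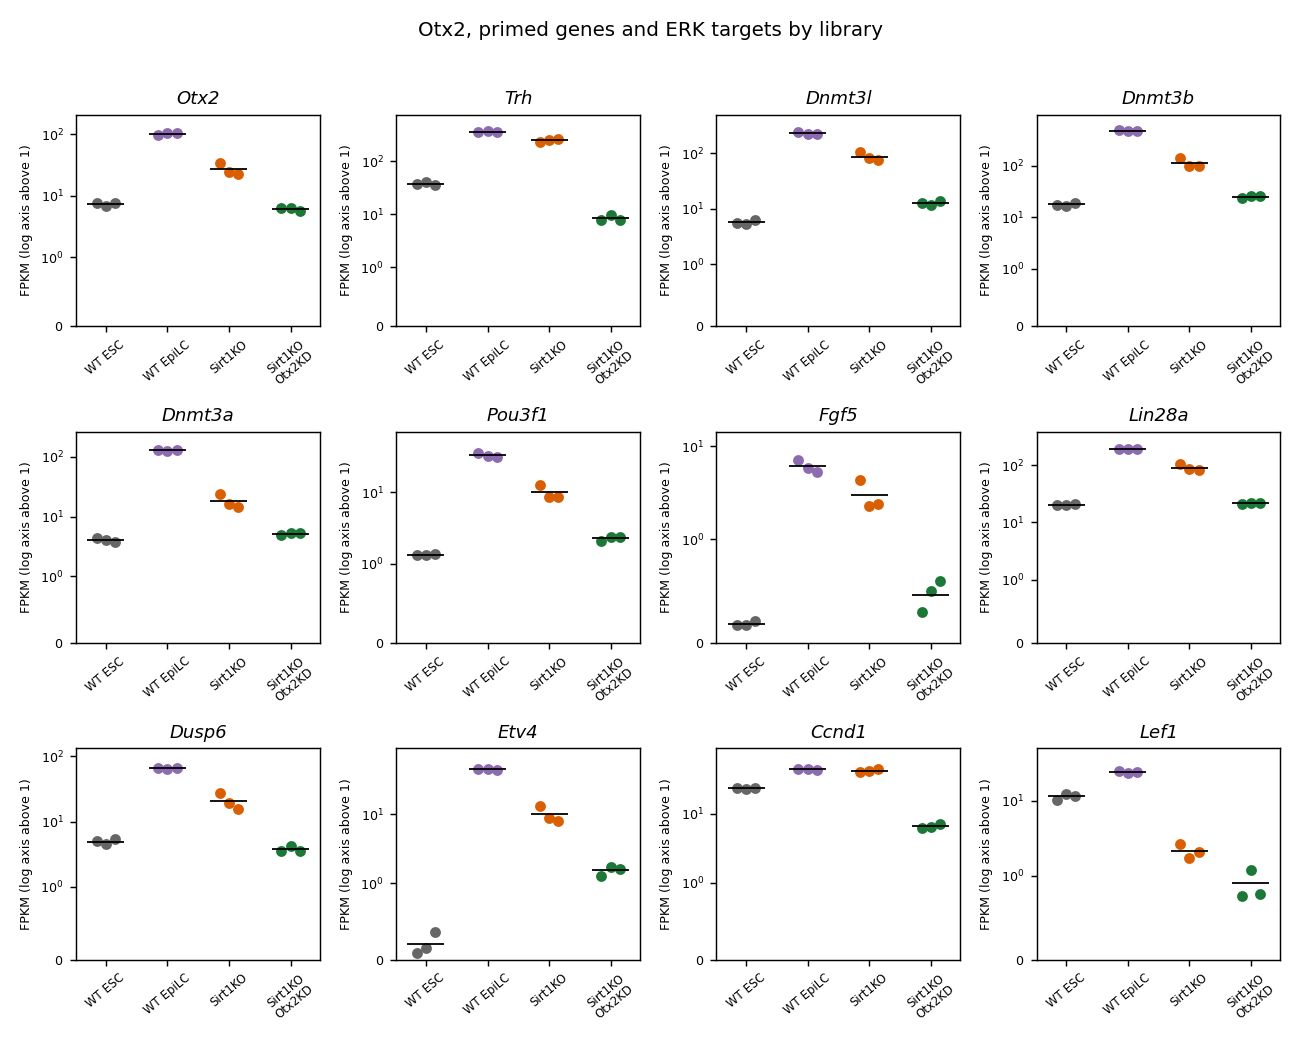
FPKM of 12 genes in each library (points) with the group mean (line), on an axis that is linear up to 1 and logarithmic above. In the Otx2, Dnmt3l, Dnmt3b, Dnmt3a, Pou3f1, Fgf5, Lin28a, Dusp6 and Etv4 panels the Sirt1KO points lie between EpiLC and Sirt1KO Otx2KD, whereas Lef1 is below wild-type ESC in both Sirt1KO groups.

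The de novo DNA methylation enzymes fell together. Dnmt3l, a catalytically inactive cofactor of these enzymes, stood at 103, 80.7 and 73.7 FPKM in Sirt1KO and at 12.6, 11.6 and 13.8 in Sirt1KO Otx2KD (log2 -2.66 ± 0.11, adjusted p = 1.39e-09). Dnmt3b stood at 143, 96.4 and 97.6 FPKM and fell to 23.9, 26.0 and 25.3 (log2 -2.10 ± 0.13, adjusted p = 2.7e-07). For Dnmt3a the values were 23.8, 16.0 and 14.6 against 4.83, 5.26 and 5.36 FPKM (log2 -1.61 ± 0.13). In all 3 genes the groups did not overlap and Sirt1KO replicate 1 was the highest library. Of the 16 tested members of the DNA methylation list (18 listed), 7 rose, 5 fell and 4 did not pass (median 0.09). Those that rose include the maintenance methyltransferase Dnmt1 (log2 0.29 ± 0.03), the dioxygenase Tet2, which oxidises 5-methylcytosine, from 21.0 to 42.5 FPKM (0.98 ± 0.06), and Prdm14, a repressor of the de novo enzymes, from 18.98 to 32.2 FPKM (0.74 ± 0.07). Uhrf1, the partner of Dnmt1, fell by 0.33 ± 0.04 and its paralog Uhrf2 rose by 0.27 ± 0.04 log2 units. Gadd45a also fell (-0.37 ± 0.12), a call lost without Sirt1KO Otx2KD replicate 3 (adjusted p = 0.0508). Rises were also called for the methyl-binding domain gene Mbd3 (0.48 ± 0.05) and for Trim28 (0.35 ± 0.05) and Zfp57 (0.34 ± 0.05), which protect imprints. Tet1 (-0.03 ± 0.07), Mbd1 (-0.05 ± 0.06) and Mbd2 (0.10 ± 0.09) were among those that did not pass.

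Naive pluripotency genes were mostly higher. Of 22 listed, 21 passed the filter; 14 rose, 4 fell and 3 did not pass, with a median log2 fold change of 0.46. Dppa3, a maternal factor expressed in naive and germ cells, stood at 69.3, 75.4 and 78.9 FPKM in Sirt1KO and at 213, 219 and 216 in Sirt1KO Otx2KD (log2 1.52 ± 0.04, adjusted p = 4.04e-12). Mylpf, a myosin light chain gene that marks naive ESC, rose from a mean of 51.2 to 135.6 FPKM (1.39 ± 0.09), and the AP-2 factor Tfap2c rose from 27.2 to 55.2 (1.00 ± 0.07). Further rises were those of Sox15 (0.83 ± 0.06), the nuclear receptors Nr0b1 (0.82 ± 0.06) and Nr5a2 (0.46 ± 0.06), the Kruppel-like factor Klf2 (0.68 ± 0.07), the T-box factor Tbx3 (0.60 ± 0.06), Fgf4 (0.60 ± 0.04) and Zfp42, known as Rex1 (0.33 ± 0.04). The Nanog locus, whose deposited name is merged with a pseudogene so that its reads may be shared, was at 347, 395 and 422 FPKM in Sirt1KO and at 617, 579 and 610.3 in Sirt1KO Otx2KD (0.64 ± 0.06). Esrrb, an orphan nuclear receptor, had a small rise (0.15 ± 0.05, adjusted p = 0.019) that was lost without Sirt1KO replicate 1 (0.0635) or Sirt1KO Otx2KD replicate 1 (0.0519) and when only the 6 libraries were fitted (0.0566).

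The 4 naive genes that fell, against most of their list, count as chosen after their values were seen. Klf4, a Kruppel-like factor downstream of LIF, stood at 103, 107 and 114 FPKM in Sirt1KO and at 50.5, 47.9 and 49.0 in Sirt1KO Otx2KD (log2 -1.12 ± 0.06, adjusted p = 2.83e-09). Tfcp2l1, which sustains naive self-renewal, fell from 150.3 to 98.9 FPKM (-0.59 ± 0.06). Both had higher means in Sirt1KO than in wild-type ESC (54.4 FPKM for Klf4 and 84.1 for Tfcp2l1), and their knockdown means lay nearer to it, as those of Dppa3 and Tfap2c did. Manba, a lysosomal mannosidase, did otherwise: it fell from 17.3, 17.2 and 17.3 to 3.96, 3.86 and 4.23 FPKM (-1.86 ± 0.05), with wild-type ESC at 34.9. Gbx2, a homeobox factor that opposes Otx2 in the neural plate, fell from 4.71 to 2.41 FPKM (-0.75 ± 0.11). Tcl1, Trim12c and Klf5 did not pass (log2 0.11, 0.07 and -0.01). Tcl1 passed without Sirt1KO replicate 3 (adjusted p = 0.0433).

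**Figure D3:**
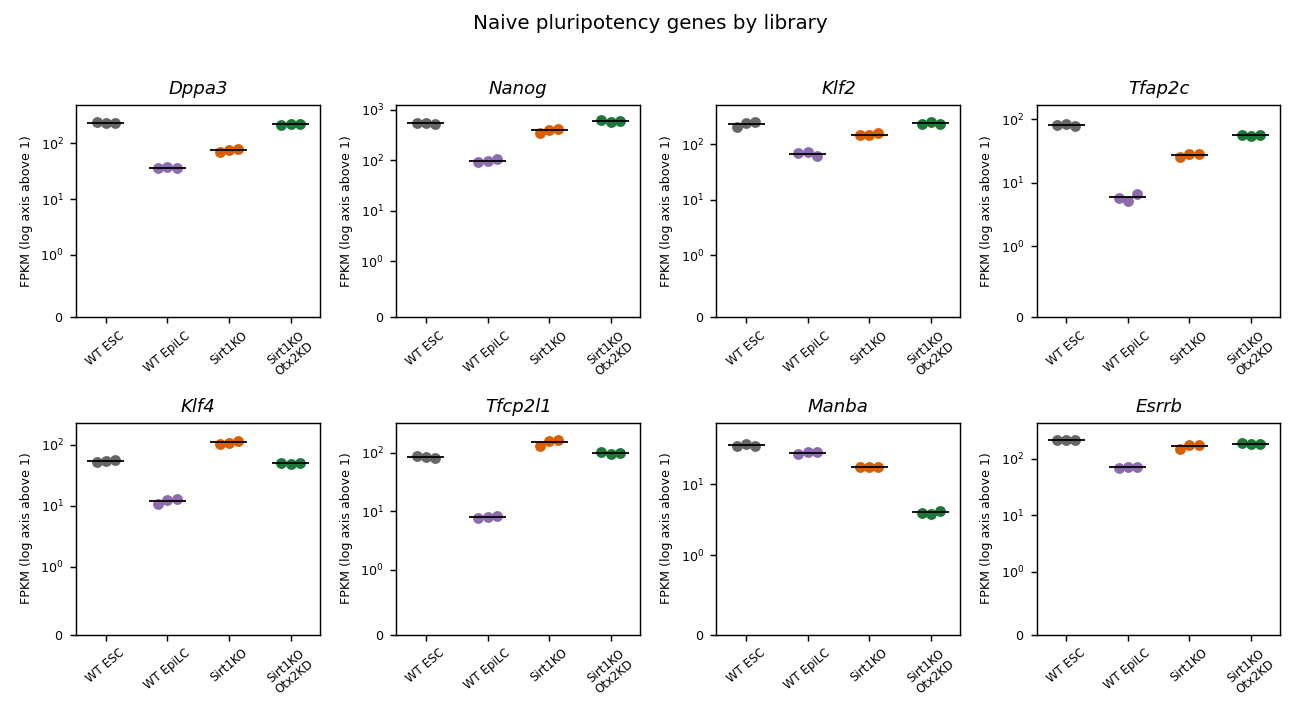
FPKM of 8 naive pluripotency genes in each library (points) with the group mean (line), on an axis that is linear up to 1 and logarithmic above; the Nanog panel is the locus merged with its pseudogene. Dppa3, Nanog, Klf2 and Tfap2c are higher in Sirt1KO Otx2KD than in Sirt1KO, Klf4, Tfcp2l1 and Manba are lower, and Esrrb lies at similar levels in both.

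General pluripotency genes split evenly, 8 higher and 8 lower of 18 (median -0.02). Lin28a, the RNA-binding protein that blocks let-7 maturation, fell from 107, 86.6 and 82.2 to 21.3, 22.4 and 21.6 FPKM (log2 -2.02 ± 0.07, adjusted p = 6e-11), and wild-type ESC stood at 20.6. L1td1, an RNA-binding protein of ESC, fell by 0.55 ± 0.03 on the log2 scale. Dppa2, a chromatin factor of early embryos, rose from 7.67 to 19.05 FPKM (1.21 ± 0.07), the zinc finger factor Sall4 from 55.8 to 108 (0.94 ± 0.04) and, named after its values were seen, Sox2 from 169 to 219.5 (0.37 ± 0.05). Utf1, a chromatin-bound factor also named after its values were seen, fell from 162, 101 and 105 to 41.9, 45.0 and 46.4 FPKM (-1.41 ± 0.16).

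Targets and feedback inhibitors of FGF and ERK signalling were mostly lower, although the cells of both groups grew with a MEK inhibitor. FGF receptors signal through MEK to ERK, which induces immediate early genes, ETS factors and phosphatases and Sprouty proteins that dampen the pathway. Of 24 listed genes, 22 passed the filter; 14 fell, 4 rose and 4 did not pass (median -0.68). Ccnd1, which encodes cyclin D1, stood at 41.0, 41.2 and 44.4 FPKM in Sirt1KO and at 6.26, 6.42 and 7.04 in Sirt1KO Otx2KD (log2 -2.51 ± 0.05, adjusted p = 8.34e-14). Of the phosphatases, Dusp4 fell from 32.6, 19.2 and 15.4 to 2.72, 3.17 and 3.27 FPKM (-2.46 ± 0.20) and Dusp6 from 27.1, 19.6 and 15.8 to 3.57, 4.27 and 3.57 (-2.16 ± 0.14). The spread of both was widest in Sirt1KO, where replicate 1 was the highest, and the groups did not overlap. Spred1, an inhibitor of the pathway, fell from 8.65 to 2.64 FPKM (-1.41 ± 0.08). The ETS factor Etv4 (9.90 to 1.52 FPKM, log2 -2.09 ± 0.14) and the immediate early factors Fos (46.5 to 14.4, -1.63 ± 0.10) and Egr1 (63.2 to 21.2, -1.54 ± 0.11), all named after their values were seen, fell too. In wild-type ESC the mean was 36.9 FPKM for Fos and 65.1 for Egr1, above the knockdown libraries. The receptors went the other way: Fgfr2 rose from 1.42, 1.14 and 1.18 to 7.15, 7.07 and 7.53 FPKM (1.88 ± 0.08) and Fgfr1 from 18.8 to 40.8 (1.08 ± 0.05), with wild-type ESC at 7.65 and 19.8.

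In the LIF and STAT3 list (16 tested), 7 rose, 5 fell and 4 did not pass (median 0.11). The STAT3 target kinase Pim1 rose from 34.7 to 74.3 FPKM (log2 1.08 ± 0.05) and the NF-kB regulator Bcl3 by 0.65 ± 0.08, while the receptor subunit Lifr fell by 0.61 ± 0.06 log2 units. Of 12 tested Wnt genes (21 listed), 6 rose and 4 fell. Wisp1, a secreted matricellular protein, rose from 0.215, 0.206 and 0.266 to 3.84, 3.08 and 3.31 FPKM (1.84 ± 0.09). P-cadherin, Cdh3, rose from 12.5 to 35.04 FPKM (1.43 ± 0.08), as did the Wnt effectors Tcf7l1, a repressor of naive genes (22.1 to 50.2, 1.15 ± 0.08), and Tcf7l2 (0.91 ± 0.08). In the Nodal and Activin list (15 tested of 20), 8 fell and 3 rose (median -0.16). The Nodal inhibitors Lefty1 (37.5 to 12.3 FPKM, log2 -1.53 ± 0.06) and Lefty2 (115 to 50.9, -1.15 ± 0.07), the coreceptor Tdgf1 (-0.68 ± 0.05) and the Activin antagonist Fst (-1.19 ± 0.11) fell. Of 13 tested BMP genes (18 listed), 7 fell and 2 rose. Id1 (-0.99 ± 0.19) and Id3 (-0.56 ± 0.10), inhibitors of bHLH factors, fell, and Msx2 (1.28 ± 0.13) and the inhibitory Smad6 (0.84 ± 0.10) rose from means under 1 FPKM. Msx2 and Smad6 were under 1 FPKM in each Sirt1KO library and passed the filter only through the knockdown libraries. Their rises, the 2 counted, were thus fixed by the filter.

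Metabolic genes were lower in several lists. Of 25 listed loci of cholesterol synthesis and its regulation, 23 were tested; 16 fell, 1 rose and 6 did not pass (median -0.77). The methylsterol oxidase Sc4mol fell from 247, 249 and 248 to 112, 116 and 114 FPKM (log2 -1.12 ± 0.03, adjusted p = 2.39e-12), with wild-type ESC at 91.4. The sterol carrier Stard4 (22.7 to 8.26 FPKM, -1.35 ± 0.06), lanosterol synthase Lss (51.4 to 24.4, -1.04 ± 0.05) and squalene epoxidase Sqle (86.4 to 50.3, -0.77 ± 0.03) fell too. In the glycolysis and hypoxia list, 20 fell, 6 rose and 6 did not pass of 32 tested (median -0.61). Slc16a3, the lactate exporter MCT4, stood at 46.4, 37.8 and 38.3 FPKM in Sirt1KO and at 6.73, 7.08 and 6.55 in Sirt1KO Otx2KD (-2.42 ± 0.07, adjusted p = 6.6e-12). Pdk1, the kinase that blocks pyruvate entry into the citric acid cycle, fell from 20.8, 17.6 and 15.4 to 2.61, 4.07 and 3.27 FPKM (-2.14 ± 0.12). Lactate dehydrogenase Ldha fell from 500.2 to 244 FPKM (-1.03 ± 0.03), and triose phosphate isomerase Tpi1 (-0.77 ± 0.03) and pyruvate kinase Pkm2 (-0.59 ± 0.02) fell as well. For Slc16a3, Pdk1, Ldha, Tpi1 and Pkm2 the knockdown means lay below those of wild-type ESC too (43.4, 5.68, 321, 133 and 611 FPKM).

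Oxidative phosphorylation genes changed less: 20 fell, 5 rose and 9 did not pass of 34 tested, with a median of -0.15. The complex I subunits Ndufs1 (74.3 to 51.1 FPKM, log2 -0.53 ± 0.04), Ndufa4 (-0.41) and Ndufv1 (-0.36) fell, and the cytochrome oxidase subunit Cox5a rose from 456 to 694 FPKM (0.61 ± 0.05). In the integrated stress response list, 18 fell and 6 rose of 29 tested (median -0.23). Its transcription factor Atf4 fell from 338, 340.4 and 323 to 247, 246 and 249 FPKM (-0.43 ± 0.03), with wild-type ESC at 251. The serine synthesis gene Psat1 (289 to 216 FPKM, -0.42 ± 0.03) and the amino acid transporter Slc7a3 (-0.55 ± 0.04) fell in step, and Sesn2, a stress-induced inhibitor of mTORC1, rose (0.52). The p53 list gave 15 rises and 4 falls among 25 loci (median 0.24): the nuclease Aen rose from 14.5 to 29.2 FPKM (0.96 ± 0.05) and Trp53 itself from 138 to 203 (0.56 ± 0.03), while the BH3-only gene Pmaip1, known as Noxa, fell from 66.7 to 23.6 (-1.46 ± 0.10). In the cell cycle list, 13 rose and 14 fell of 33. Beside the fall of Ccnd1, the other D-type cyclins rose, Ccnd3 from 55.6 to 121 FPKM (1.11 ± 0.05) and Ccnd2 from 0.758 to 2.59 (1.03 ± 0.09), and the CDK4/6 inhibitor Cdkn2b rose from 2.65 to 9.95 (1.59 ± 0.11).

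**Figure D4:**
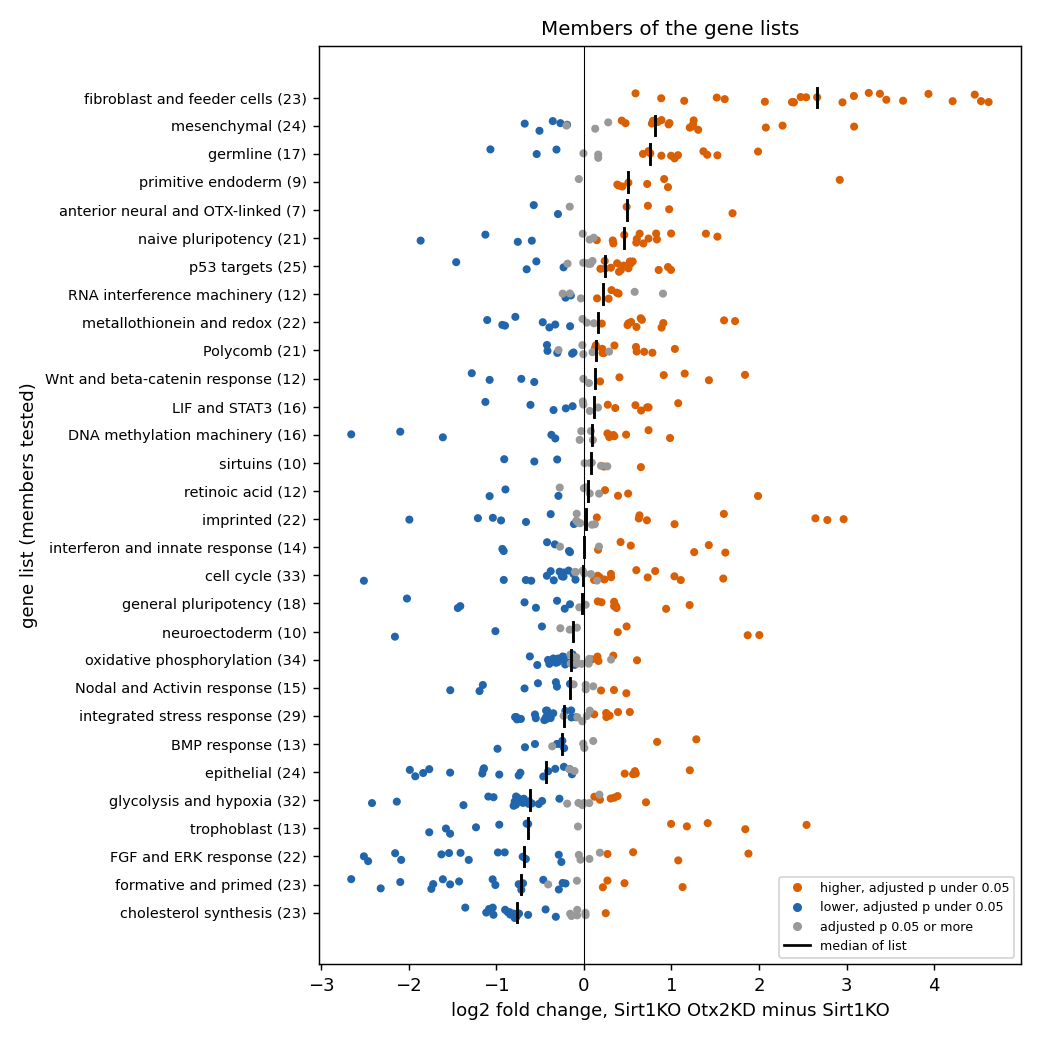
Each point is a tested member of a gene list, placed by its log2 fold change, Sirt1KO Otx2KD minus Sirt1KO (x), in rows ordered by the list's median (black bar), for lists with at least 7 tested members; the number tested is in parentheses, and colours give the call. The fibroblast and feeder cell list has the highest median (2.66) and the cholesterol, formative and primed, and FGF and ERK lists the lowest (-0.77, -0.71 and -0.68).

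Epithelial genes were mostly lower and mesenchymal genes mostly higher. The fibroblast and feeder list also rose between these groups, and whether the changes of these lists are linked was not tested. Of 24 tested epithelial genes, 17 fell and 5 rose (median -0.44). Esrp1, a splicing regulator of epithelial cells, fell from 20.2, 14.9 and 13.6 to 3.62, 3.16 and 3.08 FPKM (log2 -1.99 ± 0.12), the membrane protease Prss8 from 13.2 to 2.71 (-1.93 ± 0.12) and the adhesion molecule Epcam from 75.3 to 32.9 (-1.16 ± 0.07). The simple keratins Krt8 (8.77 to 1.87 FPKM, -1.77 ± 0.10) and Krt18 (20.8 to 6.52, -1.53 ± 0.13) fell too. Of 24 tested mesenchymal genes, 16 rose and 5 fell (median 0.82), and 3 of these falls passed in a fit of the 6 libraries with the replicate number as a block. Smooth muscle actin Acta2 rose from 1.68, 1.52 and 0.811 to 16.0, 20.2 and 19.8 FPKM (3.09 ± 0.15), the matrix protein Thbs1 from 1.73 to 12.1 (2.27 ± 0.10) and the galectin Lgals1 from 72.7 to 173 (1.24 ± 0.03). Vimentin, Vim, a defining mesenchymal gene named after its values were seen, was among those that fell, from 97.8 to 68.6 FPKM (-0.51 ± 0.06).

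Among the genes named by rule, the largest rises were those of fibroblast matrix genes. All 23 tested members of the fibroblast and feeder cell list rose, 21 of them by at least 1 log2 unit, with a median of 2.66. The list holds 24, with Pdgfra under the filter at means of 0.151 and 0.399 FPKM. Some members, such as Postn and Lum, were under 1 FPKM in each Sirt1KO library and passed the filter only through the knockdown libraries. For such members a rise was fixed by the filter, so the count and median only describe the list. Type III collagen Col3a1 stood at 2.08, 2.02 and 2.20 FPKM in Sirt1KO and at 74.4, 75.4 and 75.9 in Sirt1KO Otx2KD, 35.9-fold higher (log2 4.62 ± 0.05, adjusted p = 7.18e-16). The type I collagen chains Col1a1 (1.81 to 50.5 FPKM, 4.21 ± 0.12) and Col1a2 (1.19 to 47.2, 4.46 ± 0.08), periostin, Postn (0.313 to 29.4, 4.53 ± 0.09), and lysyl oxidase, Lox (1.65 to 39.4, 3.93 ± 0.09), rose alike. The 15 top higher genes consist largely of such genes and also hold the surface antigens Ly6a (3.66 ± 0.15) and Cd248 (3.51 ± 0.08). Wild-type ESC means lay between the 2 groups for Col3a1 (36.3 FPKM), Col1a1 (38.2), Col1a2 (22.1), Postn (6.72) and Lox (26.2), and EpiLC means did as well (15.5, 7.60, 10.5, 4.80 and 3.22). The medium is serum-free and the plates are coated with gelatin, per the labels' protocols, which name no feeder cells. Which cells in the libraries these transcripts came from was not tested.

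**Figure D5:**
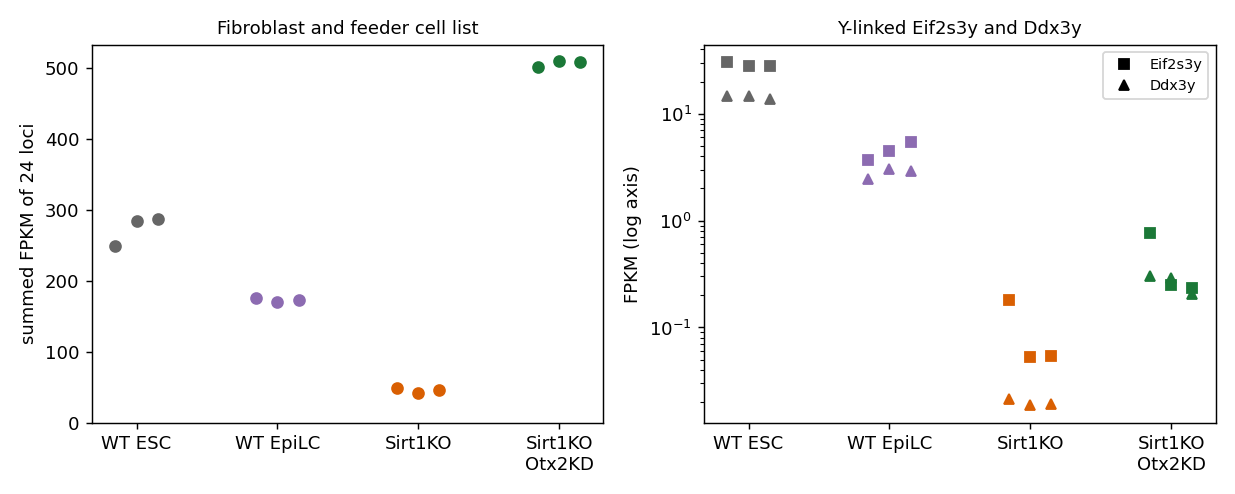
Left, summed FPKM of the 24 loci of the fibroblast and feeder cell list in each library; right, FPKM of the Y-linked Eif2s3y (squares) and Ddx3y (triangles) in each library on a log axis. The fibroblast sum is 42.0 to 48.6 in Sirt1KO and 501 to 509 in Sirt1KO Otx2KD. Both Y-linked genes are far lower in the 2 Sirt1KO groups than in wild-type ESC, and EpiLC lie between.

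Germline and lineage genes changed in both directions. Of 17 tested germline genes (28 listed), 11 rose and 3 fell (median 0.76). Stra8, a gate to meiosis, rose from 0.151, 0.132 and 0.409 to 3.30, 3.81 and 4.54 FPKM (log2 1.99 ± 0.14), with wild-type ESC at 3.94. Tex19.1, a retrotransposon defence gene, rose from 25.2 to 54.1 FPKM (1.07 ± 0.05), the receptor Kit from 43.8 to 81.6 (0.88 ± 0.06) and Ifitm1 from 116 to 239 (1.04 ± 0.04). In the trophoblast list (13 tested of 20), 5 rose and 7 fell: the homeobox gene Rhox9 rose from 3.06, 2.19 and 2.64 to 19.6, 19.4 and 21.2 FPKM (2.54 ± 0.11) and Gata2 from 2.38 to 8.001 (1.41 ± 0.07), while Krt7 (-1.58 ± 0.11) fell with Krt8. Of the lineage-defining factors, Cdx2 and Elf5 had means of 0.197 FPKM or less in both groups. Gata3, also under the filter, was at 0.0824 to 0.188 FPKM in Sirt1KO and at 0.674 to 0.941 in Sirt1KO Otx2KD. Eomes fell, as given below. In the primitive endoderm list (9 tested of 20), 8 rose and 0 fell. These are led by Srgn, a proteoglycan of blood cells (1.20 to 15.4 FPKM, 2.92 ± 0.16), and by the basement membrane genes Sparc, Col4a1 and Lamc1 (0.51, 0.96 and 0.40), which other cells make too. The defining factors Gata6, Sox17 and Sox7 had means between 0.0563 and 0.236 FPKM in both groups, and Gata4 rose from 1.13 to 1.77 (0.38 ± 0.09). The markers Dab2 (0.385 and 1.28 FPKM) and Pdgfra (0.151 and 0.399, under the filter) had higher means in Sirt1KO Otx2KD than in Sirt1KO. Of 3 tested mesendoderm genes (17 listed), Gsc rose from 3.06 to 11.9 FPKM (1.66 ± 0.09) and Eomes fell from 3.56 to 0.940 (-1.23 ± 0.09).

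Genes tied to the later role of OTX factors in the anterior neural plate were mostly low: 7 of 26 passed the filter, of which 4 rose and 2 fell. Hesx1, a homeobox repressor of the anterior neural plate, rose from 7.88, 10.9 and 10.4 to 35.2, 33.8 and 31.6 FPKM (log2 1.70 ± 0.10, adjusted p = 8.24e-09), above the wild-type ESC mean of 13.6. The midbrain factor En2 rose from 2.66 to 6.17 FPKM (0.97 ± 0.08) and the progenitor filament Nes by 0.49 ± 0.06, and Mitf, a pigment cell factor that acts with Otx2 in the retinal pigment epithelium, fell from 23.1 to 15.2 (-0.57 ± 0.09). In the neuroectoderm list (10 tested of 21), 4 rose and 3 fell (median -0.12), against 2 rises and 1 fall among members with a mean FPKM of at least 5, and 5 falls with quantile normalization. The proneural gene Neurog1 rose from 1.23, 0.961 and 0.758 to 5.76, 7.58 and 7.53 FPKM (2.00 ± 0.11), well under the 33.1 FPKM of wild-type ESC, and Olig3 rose as well (1.87 ± 0.09). Neurod1, a bHLH factor of neuronal differentiation, fell from 6.22, 4.40 and 3.84 to 1.67, 1.80 and 2.08 FPKM (-1.01 ± 0.12), and Stmn2 fell as given above. The summed level of the 21 listed loci was 288 to 322 FPKM in Sirt1KO and 227 to 240.3 in Sirt1KO Otx2KD. Of 22 tested imprinted loci (28 listed), 9 rose and 7 fell. Igf2, a fetal growth factor, rose from 1.90, 1.59 and 1.57 to 18.7, 20.8 and 20.3 FPKM (2.97 ± 0.07, adjusted p = 4.11e-13), and the neighbouring noncoding H19 rose from 6.69, 5.62 and 5.16 to 38.8, 43.4 and 42.4 (2.64 ± 0.09). Wild-type ESC stood at 16.9 and 40.2 FPKM, close to the knockdown libraries. The locus named for Meg3, merged in the files with 2 microRNA genes, rose from 0.452 to 8.97 FPKM (2.78 ± 0.09) and the locus that holds Rian from 0.221 to 2.69 (1.598 ± 0.07), both below their wild-type ESC means of 31.0 and 19.7. Both loci were under 1 FPKM in each Sirt1KO library and passed the filter only through the knockdown libraries. Their rises, counted among the 9, were thus fixed by the filter. The fibroblast and feeder list also rose between these groups, while 7 imprinted loci fell. Whether the changes of the 2 lists are linked was not tested.

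The remaining lists with more than 1 tested member had medians between 0.00 and 0.22. In the 2-cell-like list of 16 loci, only 1 member, Eif1a, was tested, and it did not pass (log2 -0.016). Among 21 Polycomb genes, 11 rose and 5 fell (median 0.14), including rises of the PRC2 subunits Aebp2 (28.0 to 58.6 FPKM, log2 1.04 ± 0.05) and Suz12 (71.9 to 117, 0.69 ± 0.04). Of 14 tested interferon response genes (30 listed), 6 rose and 6 fell; B2m, the light chain of MHC class I, rose from 27.2 to 75.0 FPKM (1.43 ± 0.07) and the RNA sensor Ddx58 fell from 10.8 to 5.24 (-0.92 ± 0.06). In the metallothionein and redox list (22 tested), 11 rose and 8 fell, with the glutathione transferase Gsto1 at 78.2, 79.3 and 82.4 FPKM in Sirt1KO and 256, 278 and 266 in Sirt1KO Otx2KD (1.73 ± 0.05) and a fall of the heme oxygenase Hmox1 from 103 to 54.7 (-0.90 ± 0.05). Of 10 tested sirtuin and NAD genes, 2 rose and 3 fell; the deacetylase Sirt6 rose from 14.3 to 23.1 FPKM (0.65 ± 0.07) and the mitochondrial Sirt5 fell from 4.35 to 1.80 (-0.91 ± 0.15). Of 12 tested retinoic acid genes, 4 rose and 3 fell, and of 12 tested genes of the RNA interference machinery, 5 rose and 2 fell, with changes of 0.15 to 0.40 log2 units among the 5 rises. Both counts were unstable: retinoic acid rises numbered 2 without Sirt1KO replicate 3 or Sirt1KO Otx2KD replicate 2 and when only the 6 libraries were fitted, and RNA interference genes gave 1 fall without Sirt1KO replicate 1 and 3 rises without Sirt1KO replicate 3.

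The comparison was set beside EpiLC, which share no library with it. Genes that differed between EpiLC and wild-type ESC tended to move in the opposite direction with Otx2 knockdown. Of 653 tested loci higher in EpiLC by at least 1 log2 unit, 467 fell (71.5%) and 50 rose (7.66%), with a median log2 fold change of -0.49. Of 1012 loci lower in EpiLC by at least 1 log2 unit, 713 rose (70.5%) and 112 fell (11.1%), with a median of 0.55. Among the other 9997 loci, 29.7% rose and 31.5% fell. Without the fibroblast and mesenchymal lists, 466 of 649 loci higher in EpiLC fell and 705 of 1003 lower in EpiLC rose. The lists hold few of these loci, so the counts could hardly change. Whether other loci expressed in fibroblasts take part was not tested. Across the 11662 loci, which are not independent replicates, the log2 fold changes of the 2 comparisons correlated at r = -0.46 (Pearson) and -0.45 (Spearman). All points of a comparison share its 6 libraries. Some chromosomes leaned to one side in the comparison of Sirt1KO Otx2KD with Sirt1KO. On chromosome 8, 41.2% of loci fell and 25.04% rose (median -0.10). Chromosomes 1 (41.5% and 26.6%) and 13 (42.3% and 20.7%, median -0.12) leaned to falls as well. On chromosome X, 43.0% of 381 loci fell and 24.4% rose (median -0.15). On chromosome 11, 22.7% fell and 39.9% rose (median 0.08), and on chromosome 19, 25.9% fell and 40.2% rose (median 0.08). Without chromosomes 8 and 11, r was -0.46 (Pearson) for the same log2 fold changes over the remaining 10029 loci. The other leaning chromosomes stayed in.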

How the data were processed

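RNA was measured by poly(A) RNA-seq in 12 libraries, 4 groups of 3 by their titles. The authors deposited FPKM per locus; the submitters' processing notes name TopHat, Cufflinks, Cuffdiff and the mm9 build, and versions are not given in the sources used here. FPKM keeps no read counts, so the absolute depth is unknown. Values were analysed as log2(FPKM + 1), which understates changes of low genes, with limma 3.58.1 in R 4.3.3 (trended, robust variance). All 12 libraries entered 1 fit of 4 group means, so that the spread was shared, and p-values were adjusted by Benjamini-Hochberg over all 11662 loci. The fit was tested on simulated data. Named genes were Otx2, Sirt1 and Pou5f1, the 15 genes each with the largest rise and fall among called loci whose groups do not overlap and whose higher group has a mean FPKM of at least 5 (no predicted, small RNA, pseudogene, merged or repeated names), all members of the naive, formative and DNA methylation lists, and up to 4 members of each other list with the largest absolute t; members that moved against most of their list, and all other names, are said to be chosen after their values were seen. Members and lists were chosen with earlier results of these data known. Alternatives changed the pseudocount, filter, scaling, libraries fitted, block and loci included, or left out each library. Loci whose names merge several genes, 188 of those tested, may share reads. Some members of the lists are counted but not reported here by name.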

Additional observations from a re-analysis of the deposited data

How the results depend on the processing

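Counts at an adjusted p under 0.05 stayed within 1.5 times of 3736 higher and 3730 lower under each alternative run, and the Otx2 fall kept its call in each. Leaving out 1 library gave 3471 to 3563 higher and 3425 to 3607 lower, 466 to 485 higher and 213 to 242 lower by at least 1 log2 unit, and an Otx2 change of -1.78 to -2.09. Counts of changes of at least 1 log2 unit depended on how low values were treated: 709 higher and 407 lower with a pseudocount of 0.1, 250 higher and 136 lower at a mean FPKM of at least 5, and 747 higher with unnamed loci included. Changes of sign were those of genes near 0 that did not pass. With quantile normalization the log2 change was -0.028 for Sirt1, 0.029 for Eif1a and -0.0018 for Trim12c. With chromosome medians removed it was 0.027 for Eif1a and 0.030 for Klf5. Over the fits that left out 1 library it ran from -0.012 to 0.030 for Sirt1, -0.055 to 0.018 for Eif1a, -0.041 to 0.0016 for Klf5, -0.087 to 0.0012 for Mbd1 and -0.079 to 0.045 for Tet1. The cause was not tested. Counts of list members moved by over 1.5 times in 30 combinations of count and alternative, most of them where a mean FPKM of at least 5 left fewer members.

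The replicate block was fitted over the 6 libraries compared, so it is set beside the fit of those 6 libraries without it, which gave 3673 higher and 3662 lower and shared 7168 of 7466 calls. With the block, 3558 loci were higher and 3554 lower, 467 and 231 by at least 1 log2 unit, and 6921 calls were shared. Same-numbered libraries did not deviate together (r = -0.119, 0.0129 and 0.0607), so the numbers are not read as a pairing. Zic2 lost its call with the block (adjusted p = 0.0768 by limma, 0.0492 without it), and Esrrb lost its call in both fits (0.052 and 0.0566).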

Other observations

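Some loci outside the gene lists, chosen after their values were seen, had large differences. Aqp3, a water and glycerol channel, was at 26.4, 30.3 and 31.4 FPKM in Sirt1KO and at 218, 211 and 216 in Sirt1KO Otx2KD (log2 2.83 ± 0.05), with wild-type ESC at 121 and EpiLC at 1.56. The autophagy receptor Calcoco2 was at 52.0, 60.1 and 65.4 FPKM in Sirt1KO and at 399.9, 393 and 398 in Sirt1KO Otx2KD (log2 2.73 ± 0.09), with wild-type ESC at 360.0 and EpiLC at 5.41. Nnat, an imprinted membrane proteolipid gene, fell from 15.3, 11.8 and 9.76 to 2.03, 2.69 and 2.18 FPKM.

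The microRNA locus Mir669i was listed at 0 in the other 9 libraries and at 13.4, 22.9 and 16.3 FPKM in Sirt1KO Otx2KD. The merged locus of Hipk3 and Mir1902 was at 3.90, 4.37 and 4.11 FPKM in Sirt1KO and at 90.04, 107 and 120 in Sirt1KO Otx2KD, but also at 73.2 in wild-type ESC replicate 2 and 118 in EpiLC replicate 1, so libraries of 1 group differed as much as the groups compared (log2 4.37 ± 1.37, adjusted p = 0.0219 by limma).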
